A study of Mus musculus with 6 samples.

Results

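The interleukin-6 (IL-6) family signalling genes followed here were a list of 9 gene symbols given by name: the cytokines Il6, Il11 and Lif, the receptor chains Il6ra, Il6st, Lifr and Osmr, the transcription factor Stat3 and the feedback inhibitor Socs3. All 9 were among the 24421 gene symbols of the count table, and 8 of them were among the 14612 symbols that reached a CPM (library-scaled read count) of 0.5 in at least 1 sample and were tested, since Il11 did not reach it. The data are RNA-seq profiles of endothelial cells (ECs) that had been sorted from the liver as CD31+CD45- cells, which carry an endothelial surface protein and lack the pan-leukocyte protein CD45. All mice were WT females of the C57BL/6J strain, 3 of them young (10 weeks) and 3 aged, of 127, 131 and 136 weeks by the sample labels. Each aged mouse is named below by its age in weeks and each young mouse by its replicate number. The comparison asked which transcripts of liver ECs differ between young and aged mice, and the labels give no transgene or treatment for either group.

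Cytokines of the IL-6 family act through receptor complexes that share gp130, the signal-transducing chain encoded by Il6st. IL-6 first binds its own receptor chain (Il6ra), and IL-11 binds the IL-11 receptor chain. Leukaemia inhibitory factor (Lif) joins gp130 to Lifr, and oncostatin M joins it to Osmr or Lifr. The complexes activate Janus kinases, which phosphorylate STAT3, and STAT3 switches on Socs3, whose product binds gp130 and the kinases and ends the signal. In the liver the family is known above all for driving the acute-phase response of hepatocytes and for its part in regeneration after injury.

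In young liver ECs the shared receptor chain and the feedback inhibitor were abundant and the cytokines scarce. On the FPKM scale, which is per length of transcript and so allows genes to be set beside each other, the mean of the 3 young mice was 701 for Il6st and 364 for Socs3, which placed them above 99.6% and 99.1% of all symbols. Lifr followed at 180 FPKM, Stat3 at 65.3 FPKM and Osmr at 55.1 FPKM, and then a wide gap to Il6 at 4.43 FPKM, Il6ra at 1.08 FPKM, Il11 at 0.0982 FPKM and Lif at 0.0845 FPKM. In this order the young mice of Stat3 (53.6 to 73.4 FPKM) and Osmr (35.2 to 78.2 FPKM) overlapped, as did those of Il6 (1.14 to 7.46 FPKM) with Il6ra (0.926 to 1.15 FPKM) and those of Il11 with Lif, so that these neighbours did not differ beyond their spread. Il6ra, the chain that makes a cell responsive to IL-6 itself, thus stood at 0.00146 to 0.00170 of the FPKM of its partner Il6st in the young mice. In the aged mice the mean of Socs3 (731 FPKM) was above that of Il6st (501 FPKM), with values of 486 to 1023 and 341 to 604 FPKM that overlapped. The aged mean of Il6 was 33.7 FPKM, next to Osmr at 39.1 FPKM. Il6 ranged from 10.4 to 62.5 FPKM, the highest in the 136-week mouse, and Osmr from 33.8 to 45.2 FPKM.

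**Figure D1:**
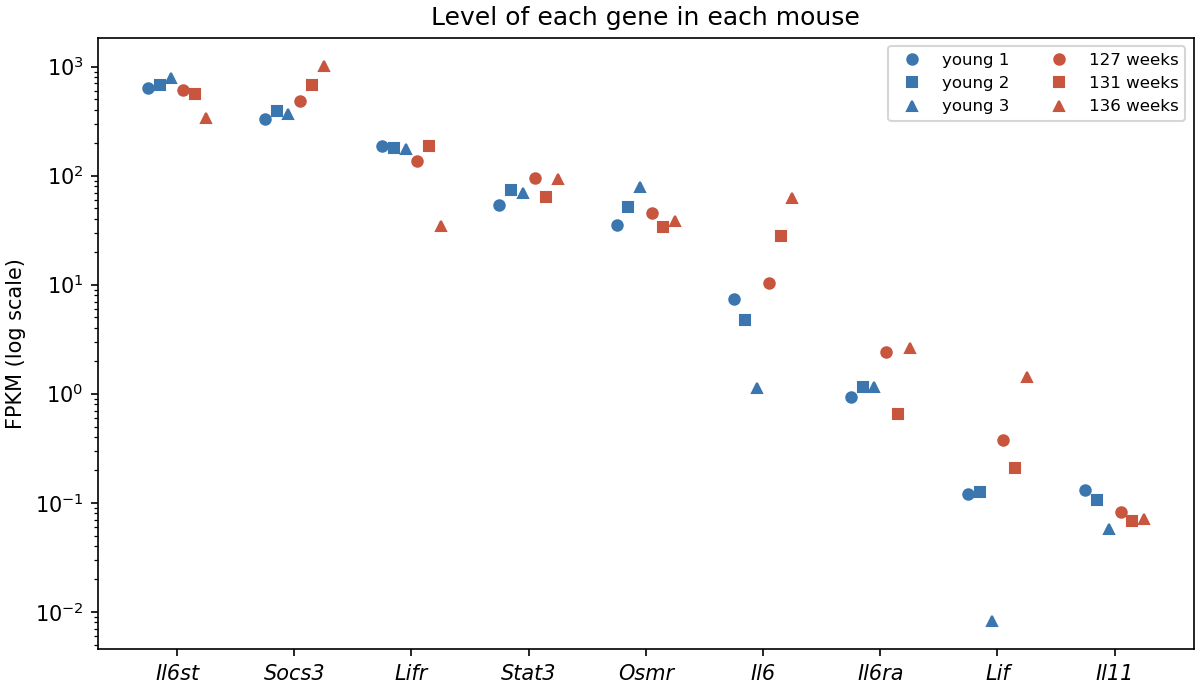
FPKM (log scale) of each of the 9 genes in each of the 6 mice, in the order of their mean over all mice; blue symbols are young and red symbols aged mice. Il6st and Socs3 lie at 332 FPKM or above in every mouse, and the aged values of Il6, Lif and Socs3 all lie above the young ones.

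Il6, Lif and Socs3 were higher in each aged mouse than in any young mouse, and Il6st was lower in each. Lif reached the filter of 0.5 CPM in the aged mice alone and so had to be higher there, and it is left out of the counts that follow. Of the other 7 tested members 2 were above and 1 below without overlap, where 9.62% of all genes tested had all aged values above and 8.33% had all below the young ones. With edgeR's quasi-likelihood test and Benjamini-Hochberg adjustment over the 14612 genes, 0 members, Lif included, passed an adjusted p of 0.05, as did 0% of all genes (0 genes, the smallest adjusted p being 0.0735). At an unadjusted p below 0.05, 2 of the 7 were higher and 0 lower, against 12.6% of all genes in either direction. With the Wald test of DESeq2, 2 members passed an adjusted p of 0.05, Il6 and Socs3, against 4.42% of the genes it tested. Calls for these genes therefore depended on the test, and they are given below from both. Because the samples are bulk RNA, fewer cells of a type and less RNA per cell cannot be told apart in any of these values.

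Of the 3 cytokines on the list, Il6 differed most between the ages in relation to its error. Il6 (chromosome 5, 30339701 to 30346508, mm9) had 188, 101 and 33 counts in young mice 1, 2 and 3, and 303, 680 and 1447 counts in the 127-, 131- and 136-week mice. In library-normalized counts this was 7.00, 4.56 and 1.04 CPM in the young and 10.4, 26.5 and 58.8 CPM in the aged mice. The aged values did not overlap the young ones and ran over a wider range, with the 136-week mouse far above the other aged mice. The mean was 4.20 ± 2.99 CPM in young and 31.9 ± 24.6 CPM in aged liver ECs (SD, n = 3 each). The log2 fold change was 2.93 (SE 0.81), a 7.61-fold difference, with an edgeR adjusted p of 0.256 and a DESeq2 adjusted p of 0.00286. By its unadjusted edgeR p of 0.00797, Il6 was at place 446 of all genes tested. The log2 fold change was 2.14 without the 136-week mouse and 3.53 without young mouse 1.

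Lif, a cytokine that signals through Lifr and gp130, was scarce at both ages but followed the same direction. Lif (chromosome 11, 4157560 to 4172517, mm9) had 13, 11 and 1 counts in the young mice and 47, 21 and 139 counts in the 127-, 131- and 136-week mice. These were 0.484, 0.496 and 0.0316 CPM in the young and 1.62, 0.817 and 5.65 CPM in the aged mice. The 2 groups did not overlap, and the lowest aged value lay close to the highest young ones. Summed over each group, 25 young and 207 aged counts gave an aged-to-young ratio of 8.42, with an exact 95% interval of 5.54 to 13.3 that covers counting error only and not the spread between mice. All 3 young values were under the filter of 0.5 CPM and all 3 aged values over it, so that Lif was tested only because of the group in which it is high. The fitted log2 fold change was 3.01 (SE 1.06), with an edgeR adjusted p of 0.332 and a DESeq2 adjusted p of 0.0618, and it was 1.87 without the 136-week mouse.

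Il11, a cytokine linked to fibrosis and acting through the IL-11 receptor chain and gp130, was near the detection floor at both ages. Il11 (chromosome 7, 4724669 to 4734460, mm9) had 7, 4 and 5 counts in the young and 5, 7 and 3 counts in the aged mice, and 3 counts corresponded to 0.0947 to 0.135 CPM in these libraries. Its mean was 0.200 ± 0.0540 CPM in young and 0.189 ± 0.0766 CPM in aged liver ECs (SD, n = 3 each). The sums of 16 and 15 counts gave a ratio of 0.953, with an exact 95% counting interval of 0.439 to 2.06, so that a difference smaller than these bounds was not detectable at this depth.

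Socs3, the inhibitor that STAT3 induces, was higher in the aged mice as well. Socs3 (chromosome 11, 117827393 to 117831361, mm9) had 869, 1026 and 940 CPM in young mice 1, 2 and 3 and 1256, 1795 and 2683 CPM in the 127-, 131- and 136-week mice. The young mice lay close together, and the lowest aged mouse was still above the highest young one. The mean was 945 ± 78.6 CPM in young and 1912 ± 720 CPM in aged liver ECs (SD, n = 3 each), and with 22725 counts or more in each library its counting error was small beside the spread between mice. The log2 fold change was 1.02 (SE 0.29), a 2.02-fold difference, with an edgeR adjusted p of 0.256 and a DESeq2 adjusted p of 0.0212. Without the 136-week mouse it was 0.69.

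**Figure D2:**
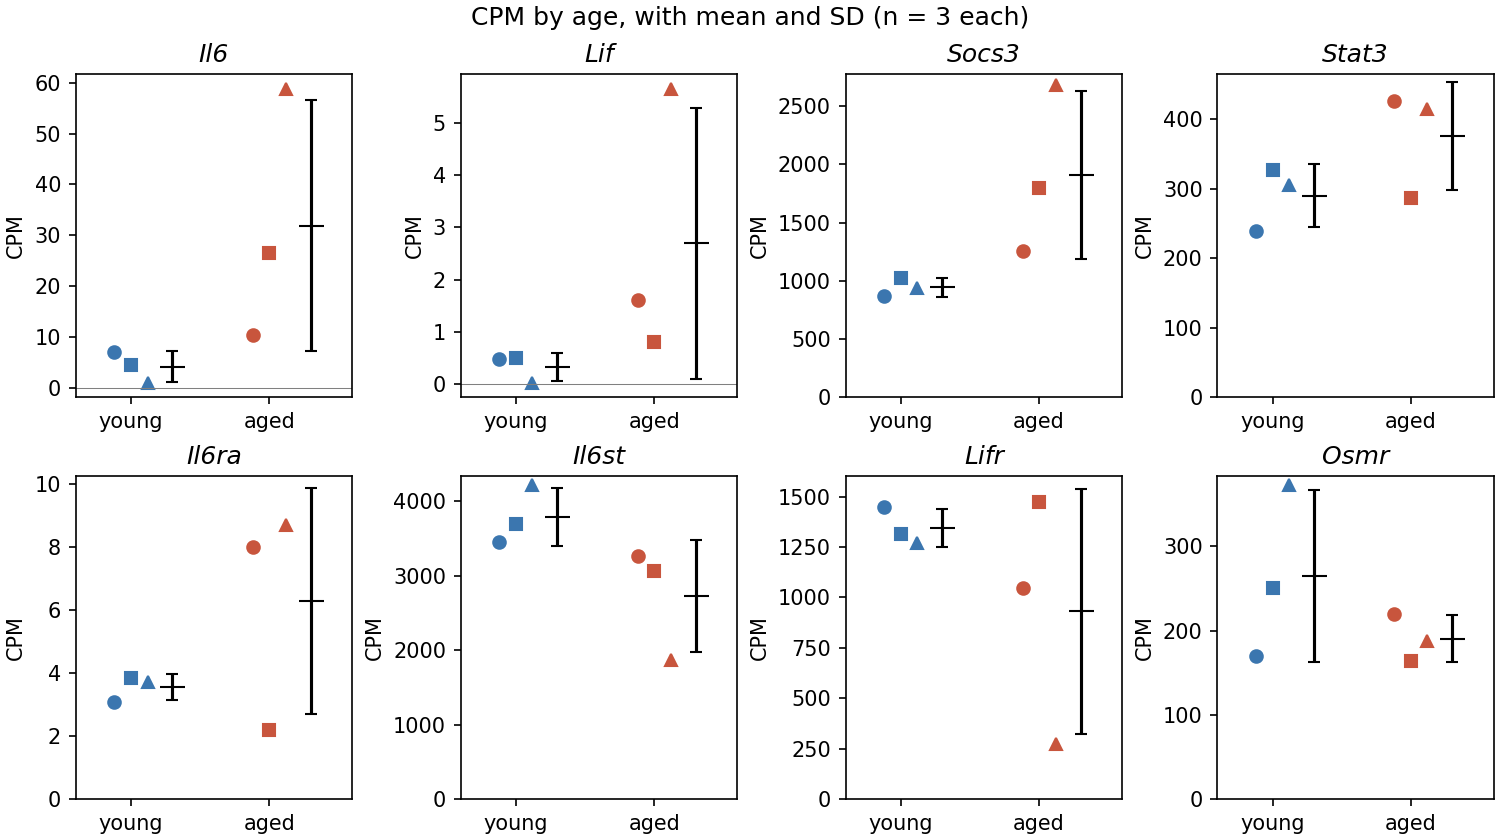
CPM of the 8 tested genes by age on linear axes that include 0; points are single mice (circle, square and triangle for young 1, 2, 3 and for 127, 131 and 136 weeks), and the bar gives the mean and SD of 3 mice. Il6, Lif and Socs3 were higher and Il6st lower in all aged mice, while Il6ra, Lifr, Osmr and Stat3 overlapped between the ages.

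The 250 bases upstream of the start of Il6, Lif and Socs3, the genes higher in all aged mice, are shown with matches to short factor motifs in capitals. The windows are those of RefSeq on GRCm38.p6 (another build than the mm9 positions above), 5′ to 3′ along the gene, and both strands were searched. Il6 lies at chr5:30012864-30013113 (plus strand), Lif at chr11:4257318-4257567 (plus strand) and Socs3 at chr11:117969367-117969616 (minus strand).
Il6: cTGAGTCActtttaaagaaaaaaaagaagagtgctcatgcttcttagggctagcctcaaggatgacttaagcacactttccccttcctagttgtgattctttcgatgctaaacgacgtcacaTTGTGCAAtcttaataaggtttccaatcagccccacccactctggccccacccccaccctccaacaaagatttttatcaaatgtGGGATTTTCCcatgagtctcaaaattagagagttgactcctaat
Lif: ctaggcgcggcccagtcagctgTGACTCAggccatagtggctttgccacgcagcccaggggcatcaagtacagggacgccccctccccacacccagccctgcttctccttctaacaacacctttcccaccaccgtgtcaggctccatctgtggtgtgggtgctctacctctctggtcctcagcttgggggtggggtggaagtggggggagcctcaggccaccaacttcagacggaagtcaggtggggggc
Socs3: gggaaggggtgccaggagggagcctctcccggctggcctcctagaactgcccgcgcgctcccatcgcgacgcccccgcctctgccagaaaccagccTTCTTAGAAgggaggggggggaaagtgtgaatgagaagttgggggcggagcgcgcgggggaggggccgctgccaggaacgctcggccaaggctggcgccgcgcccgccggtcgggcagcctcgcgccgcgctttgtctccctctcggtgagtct
In the Il6 window the capitals mark an AP-1 match (TGANTCA) at 249 to 243 bases before the start, a C/EBP match (TTGCNNAA, read on the opposite strand) at 128 to 121 bases and a match to the kappa B motif at 44 to 35 bases. In the Lif window they mark an AP-1 match at 228 to 222 bases, and in the Socs3 window a STAT match (TTCNNNGAA) at 154 to 146 bases. Of 32851 RefSeq windows of the same length, 6.75% held the AP-1 letters, 9.56% the C/EBP letters, 0.356% the kappa B letters and 7.02% the STAT letters. Another motif searched, the CRE, was in the window of no member as the exact letters TGACGTCA (in 1.55% of windows). Near matches were not counted, such as cgacgtca in the Il6 window, which differs in its first letter. The windows of Il6ra, Il6st, Lifr, Osmr and Stat3 held none of these motifs, and 1 of the 2 windows of Il11 held an AP-1 match, at 98 to 92 bases before the start. None of the matches overlapped another, and they are matches of letters, not sites at which binding was measured.

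The receptor chains differed less between the ages and mostly in the other direction. Il6st (gp130; chromosome 13, 113265216 to 113297068, mm9) had 3458, 3697 and 4222 CPM in young mice 1, 2 and 3 and 3262, 3061 and 1865 CPM in the 127-, 131- and 136-week mice. All aged values were below all young ones, by little in the 127-week mouse and by most in the 136-week mouse. The mean was 3792 ± 391 CPM in young and 2729 ± 755 CPM in aged liver ECs (n = 3 mice per age, SD). The fitted log2 fold change was -0.47 (SE 0.26), with an edgeR adjusted p of 0.510 and a DESeq2 adjusted p of 0.345. It was -0.26 without the 136-week mouse.

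Lifr, the chain that pairs with gp130 for LIF and oncostatin M, had 1448, 1314 and 1269 CPM in the young mice and 1045, 1474 and 275 CPM in the 127-, 131- and 136-week mice (chromosome 15, 7079559 to 7147489, mm9). The 131-week mouse was above every young mouse and the 136-week mouse far below all others, so that the groups overlapped and 1 library set the mean. The log2 fold change was -0.53 (SE 0.52; edgeR adjusted p 0.738), -0.09 without the 136-week mouse and -1.03 without the 131-week mouse. Osmr, a receptor chain for oncostatin M and, with Il31ra, for IL-31, and the neighbour of Lifr on chromosome 15 (6763577 to 6824313, with 255245 bases between the genes), had 170, 251 and 373 CPM in the young and 220, 164 and 187 CPM in the aged mice. Its groups overlapped too, with most of the spread among the young mice, and its log2 fold change was -0.48 (SE 0.28; edgeR adjusted p 0.552), or -0.15 without young mouse 3. The ratio of Osmr to Lifr within a sample, in FPKM, was 0.186, 0.293 and 0.447 in the young and 0.334, 0.181 and 1.11 in the aged mice. It did not separate the ages (log2 difference 0.49, two-sided exact permutation p = 0.7, the smallest p possible being 0.1), and without the 136-week mouse the difference was -0.24.

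Il6ra was the receptor chain whose aged mean was higher. Il6ra (chromosome 3, 89673246 to 89717084, mm9) had 3.09, 3.84 and 3.72 CPM in the young mice and 7.98, 2.18 and 8.69 CPM in the 127-, 131- and 136-week mice. The 127- and 136-week mice were thus above and the 131-week mouse below all young mice. The log2 fold change was 0.82 (SE 0.50; edgeR adjusted p 0.557). The ratio of Il6ra to Il6st in FPKM was 0.00146, 0.00170 and 0.00146 in the young and 0.00397, 0.00117 and 0.00773 in the aged mice, a log2 difference of 1.11 with a two-sided exact permutation p of 0.4.

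Stat3, the transcription factor that carries the signal, had 239, 327 and 305 CPM in the young and 427, 286 and 415 CPM in the 127-, 131- and 136-week mice (chromosome 11, 100746412 to 100800854, mm9). The 131-week mouse lay among the young mice and the other aged mice above them. The log2 fold change was 0.37 (SE 0.21; edgeR adjusted p 0.524). Exons of Stat3 overlap those of Stat5a on the opposite strand, and the sources do not say whether counting used the strand, so reads of the overlap cannot be assigned to one of them. The other 8 members overlap no annotated gene.

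The aged mice were not ordered alike for all members. Il6ra, Stat3 and Lif had higher values in the 127-week than in the 131-week mouse, while Il6 and Socs3 had the reverse order. The 136-week mouse had the highest level of Il6, Lif, Il6ra and Socs3 and the lowest of Il6st and Lifr among all 6 mice. Over the 6 samples Pearson's r of log2(CPM + 1) was 0.91 between Il6 and Socs3 and -0.96 between Lif and Il6st, as a description of 6 points that share the age groups and the libraries. By the same measure the genes most like Il6 among 12455 compared were Rpl6, Mif and Dnajb4 (r = 0.995, 0.994 and 0.991), and those most like Socs3 were Fbxo30, Epha2 and Sox7 (r = 0.996, 0.996 and 0.995). With 6 points such values were common, as 384 genes exceeded 0.9 with Il6 and 299 with Socs3. Those most like Lif were Tmem201, Eif2b3 and Fbln2, those most like Il6st included Tm9sf1 and Erbb2, and those most like Lifr were Tmem126b, Vamp5 and Nav1. For Il6ra they were Lrrc16a, Ifit1bl1 and Psma1, for Osmr Atf7, Acadsb and 4931414P19Rik, and for Stat3 Rbm34, Slc46a3 and Wdr73.

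**Figure D3:**
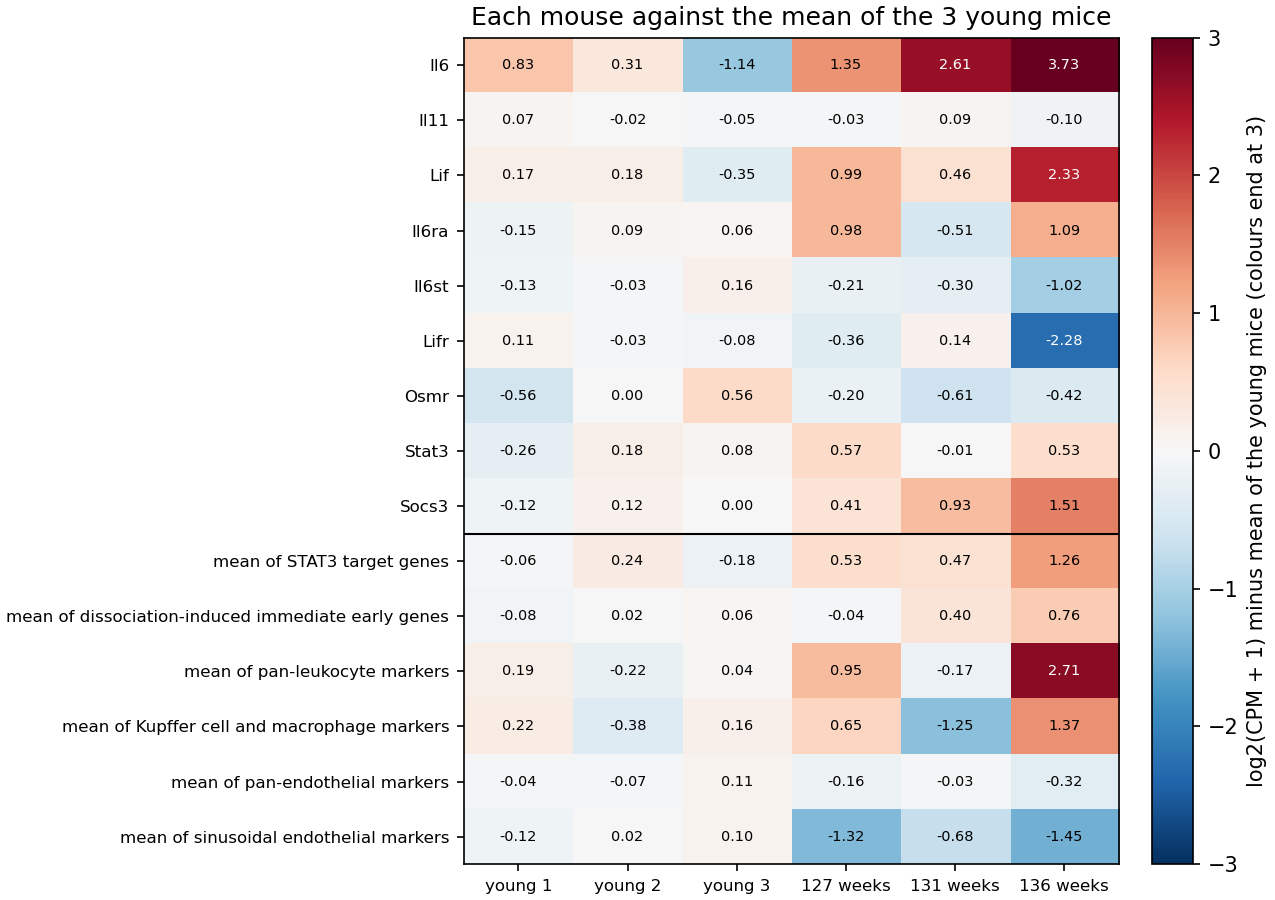
Difference of each mouse (columns) from the mean of the 3 young mice on the log2(CPM + 1) scale, for the 9 genes (above the line) and for the mean of 6 gene lists (below it); red is higher and blue lower. The 131-week mouse had Il6 at 2.61 and Socs3 at 0.93 above the young mean with its leukocyte markers at -0.17, and the 136-week mouse had Il6 at 3.73 with leukocyte markers at 2.71.

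The libraries also differed in ways that age does not define. Total counts ran from 23001556 to 31651817. Lars2 and Rn45s, symbols that collect ribosomal RNA reads, held 1.29% of counts in young mouse 3 and 0.960% in the 127-week mouse, and 4.68% to 5.53% in the other 4. Within the 4 libraries with the higher share the log2(CPM + 1) difference between aged and young was 2.60 for Il6, 1.22 for Lif, 1.22 for Socs3 and -0.58 for Il6st. Between young mouse 3 and the 127-week mouse it was 2.48 for Il6, 1.34 for Lif, 0.42 for Socs3 and -0.37 for Il6st, with 1 mouse of each age. The direction of these 4 genes was fixed in advance in both comparisons, because their groups did not overlap, so only the sizes are informative.

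Markers of other cells were low but not even across the mice. The 8 pan-endothelial markers were abundant in every library, with sums of 9242 to 10212 CPM in young and 6804 to 8770 CPM in aged mice. Of 7 sinusoidal endothelial markers, 6 were lower in all aged mice (8.33% of all genes), and 5 passed DESeq2 as lower (4.42% of all genes in either direction). The 7 summed to 14950 to 16616 CPM in young and 5704 to 10142 CPM in aged mice. Stab2, a scavenger receptor of these cells, had the largest drop, at 2902, 3199 and 3021 against 504, 1760 and 542 CPM. Lyve1, the remaining marker, overlapped between the ages with a higher aged mean (log2 fold change 0.58). It was at 391, 537 and 671 CPM in young and 661, 223 and 1506 CPM in the 127-, 131- and 136-week mice. The 8 pan-leukocyte markers were all higher by log2 fold change, as were 51.1% of all genes tested. Their sums were 103 to 107 CPM in young mice and 117, 102 and 374 CPM in the 127-, 131- and 136-week mice. Lcp1 was the largest part of each sum, at 79.3 to 86.9 CPM in young and 59.6, 83.7 and 156 CPM in aged mice. Ptprc, which encodes CD45, was at 1.17 to 1.70 CPM and at 7.57, 1.28 and 25.6 CPM. On the log2(CPM + 1) scale the mean of the list differed from the young mean by 0.95, -0.17 and 2.71 in the aged mice. The 8 Kupffer cell and macrophage markers summed to 33.2 to 62.4 CPM in young mice and 98.2, 12.6 and 160 CPM in the aged ones, with Timd4 at 0 in the 131-week mouse and Marco at 0 in the 127-week mouse. The sums of T cell markers were 7.56 to 9.78 CPM in young and 9.69 to 29.8 CPM in aged mice. Lck was the largest part of each, at 5.69 to 8.90 and 8.79 to 13.5 CPM, and Cd3d was at 0 in young mice 2 and 3 and in the 131-week mouse. For B cell markers they were 0.947 to 1.23 and 0.739 to 8.49 CPM, and for neutrophil markers 1.64 to 6.05 and 5.33 to 36.1 CPM. The 9 stellate cell and fibroblast markers summed to 133 to 431 and 226 to 710 CPM. Reln made up most of the sum in the 127- and 136-week mice (351 and 496 CPM), while Lrat, a gene of vitamin A storage in stellate cells, was lower in all aged mice (log2 fold change -2.19, edgeR adjusted p 0.286, DESeq2 adjusted p 0.0198). The hepatocyte markers summed to 95.2 to 154 and 68.7 to 89.6 CPM, and the cholangiocyte markers to 5.90 to 21.1 and 16.4 to 21.6 CPM. The mesothelial sums of 197 to 329 and 355 to 553 CPM came almost wholly from Gpm6a, while Msln and Upk3b were lower in all aged mice and Wt1 was at 0 in all but 1 young mouse.

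The 131-week mouse had leukocyte and macrophage sums at or below those of the young mice. Its Il6 was at 26.5 CPM and its Socs3 at 1795 CPM, both above every young mouse, and its Il6ra at 2.18 CPM was below all of them. In a fit with the mean of the leukocyte markers as a term, the log2 fold change of Il6 was 2.27, that of Lif 1.45, that of Socs3 0.73 and that of Il6ra 0.02. The unadjusted edgeR p was then 0.0293 for Il6, 0.182 for Lif and 0.0400 for Socs3. The term rests largely on the 136-week mouse. Immediate early genes, which tissue dissociation is known to induce, had a positive log2 fold change for 10 of 11 genes (51.1% of all genes tested). Their mean on the log2(CPM + 1) scale differed from the young mean by -0.04 in the 127-week, 0.40 in the 131-week and 0.76 in the 136-week mouse. Of the 11, 5 were higher in all aged mice (9.62% of all genes), among them Atf3 (1.33) and Nr4a1 (1.02), while Dusp1 was lower in all aged mice (-0.41) and Fos overlapped (0.07). With their mean as a term, the log2 fold change was 1.54 for Il6, 2.04 for Lif and 0.45 for Socs3, and 0 of these 3 genes kept an unadjusted edgeR p below 0.05 (0.117, 0.133 and 0.0708). Each term is a mean over genes of the same libraries, so these fits cannot tell such a part from age. The part of these cells and genes in the differences of Il6, Lif and Socs3 was not tested.

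The remaining genes of the pathway, taken from lists by role, are counted next against a median log2 fold change of 0.01 over all genes tested. With edgeR 0 of them passed an adjusted p of 0.05, and the numbers with an unadjusted p below 0.05 are given for each list. The shares of all genes given above stand beside each list as well, at 12.6% for that p, 4.42% for DESeq2 and 9.62% and 8.33% for groups without overlap above and below. Of 8 other ligands of the family 4 passed the filter, but Ctf1 and Ebi3 did so through the aged mice alone, so no count over the list is drawn. Clcf1 alone reached an unadjusted p below 0.05, as higher. Clcf1, a ligand of the receptor chain Cntfr, had 1.53, 1.49 and 1.48 CPM in the young and 7.81, 3.93 and 6.30 CPM in the aged mice. Its groups stood well apart, with a log2 fold change of 2.00 (SE 0.35), an edgeR adjusted p of 0.193 and a DESeq2 adjusted p of 8.51e-05. Ctf1 (cardiotrophin) was also higher in all aged mice, at 0.221 to 0.447 CPM against 0.487 to 0.825 CPM. Osm, the ligand of Osmr and known as a product of leukocytes, had 0.931, 0.632 and 0.978 CPM in the young and 2.65, 0.311 and 7.07 CPM in the 127-, 131- and 136-week mice, in the same order of the aged mice as the leukocyte markers. Its log2 fold change was 1.97 (edgeR adjusted p 0.447). Ebi3, a subunit of IL-27, was at 0.181 to 0.261 and 0.233 to 0.934 CPM.

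Of 6 other receptor chains and shedding proteases tested, 2 had a higher and 4 a lower aged mean, and 3 were lower in all aged mice, with a median of -0.21. An unadjusted p below 0.05 was reached by 2, both lower, and DESeq2 called 0. Cntfr, the receptor chain to which CLCF1 binds, had 55.3, 56.2 and 73.6 CPM in the young and 13.6, 46.2 and 13.8 CPM in the aged mice, the 131-week mouse being closest to the young ones. Its log2 fold change was -1.33 (SE 0.48; edgeR adjusted p 0.341), opposite to that of its ligand Clcf1. Il27ra, which pairs with gp130 for IL-27, was at 91.2 to 99.5 CPM in young and 56.0 to 88.2 CPM in aged mice (log2 fold change -0.45, edgeR adjusted p 0.379). Adam17, a protease that sheds the IL-6 receptor, was at 102 to 121 and 84.4 to 98.4 CPM (-0.24), and Adam10, another sheddase and the most abundant of the list per length at a mean of 73.7 FPKM, was at 250 to 385 and 328 to 361 CPM (0.05).

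Among 5 Janus kinases and other STAT factors, 1 had a higher and 4 a lower aged mean, and the median was -0.17. By unadjusted p 1 was higher and 1 lower, and DESeq2 called 0. Jak1, the kinase most tied to gp130 and the most abundant of the list at 291 FPKM, had 1484, 1729 and 2339 CPM in the young and 1041, 1288 and 1312 CPM in the aged mice. All aged mice were below all young ones, with a log2 fold change of -0.61 (SE 0.23; edgeR adjusted p 0.350). Stat5b was also lower in all aged mice (-0.24) and Stat5a higher in all (0.49, edgeR adjusted p 0.378).

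Of 10 further feedback regulators, 7 had a higher and 3 a lower aged mean, with a median of 0.23, and 1 was higher in all aged mice and alone reached an unadjusted p below 0.05. This was Socs2, an inhibitor of growth hormone signalling, with 24.9, 23.0 and 18.1 CPM in the young and 60.8, 35.2 and 95.4 CPM in the aged mice, a log2 fold change of 1.54 (SE 0.35; edgeR adjusted p 0.235, DESeq2 adjusted p 0.00294). Cish, the most abundant of these per length at 57.2 FPKM, overlapped between the ages at 82.4 to 109 and 89.9 to 199 CPM (0.63), as did Socs1, an inhibitor of interferon signalling, at 17.6 to 31.7 and 23.5 to 61.4 CPM (0.66).

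Of 20 genes known to be induced by STAT3 in various cells, 16 had a higher and 4 a lower aged mean, 8 were higher and 0 lower in all aged mice (9.62% and 8.33% of all genes), and the median was 0.95. An unadjusted edgeR p below 0.05 was reached by 11, all higher (12.6% of all genes in either direction), and DESeq2 called 7 (4.42% of all genes). Those higher in all aged mice were Junb (log2 fold change 0.53), Batf (1.03) and Myc (2.28), which encode transcription factors, Mcl1 (0.70) and Ier3 (1.02), which act in cell survival, Timp1 (0.96), a protease inhibitor, Vegfa (1.68), the endothelial growth factor, and Icam1 (1.56), a leukocyte adhesion molecule. Mcl1, for example, had 347, 336 and 339 CPM in the young and 428, 563 and 665 CPM in the aged mice. Bcl3 (1.27), Fosl2 (1.33), Fgl2 (1.45) and Lcn2 (1.45) reached an unadjusted p below 0.05 with overlapping groups. Without the 136-week mouse 17 had a higher aged mean, 7 reached that p as higher and 1 as lower, where 7.78% of all genes did in either direction, and the median was 0.54. Most of these genes also answer to other signals, NF-kappa B and AP-1 among them. Clcf1, Ctf1, Socs2, Myc, Vegfa, Icam1, Ier3 and Batf are on the study's own lists of genes that changed in these samples, so they are not independent of them.

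**Figure D4:**
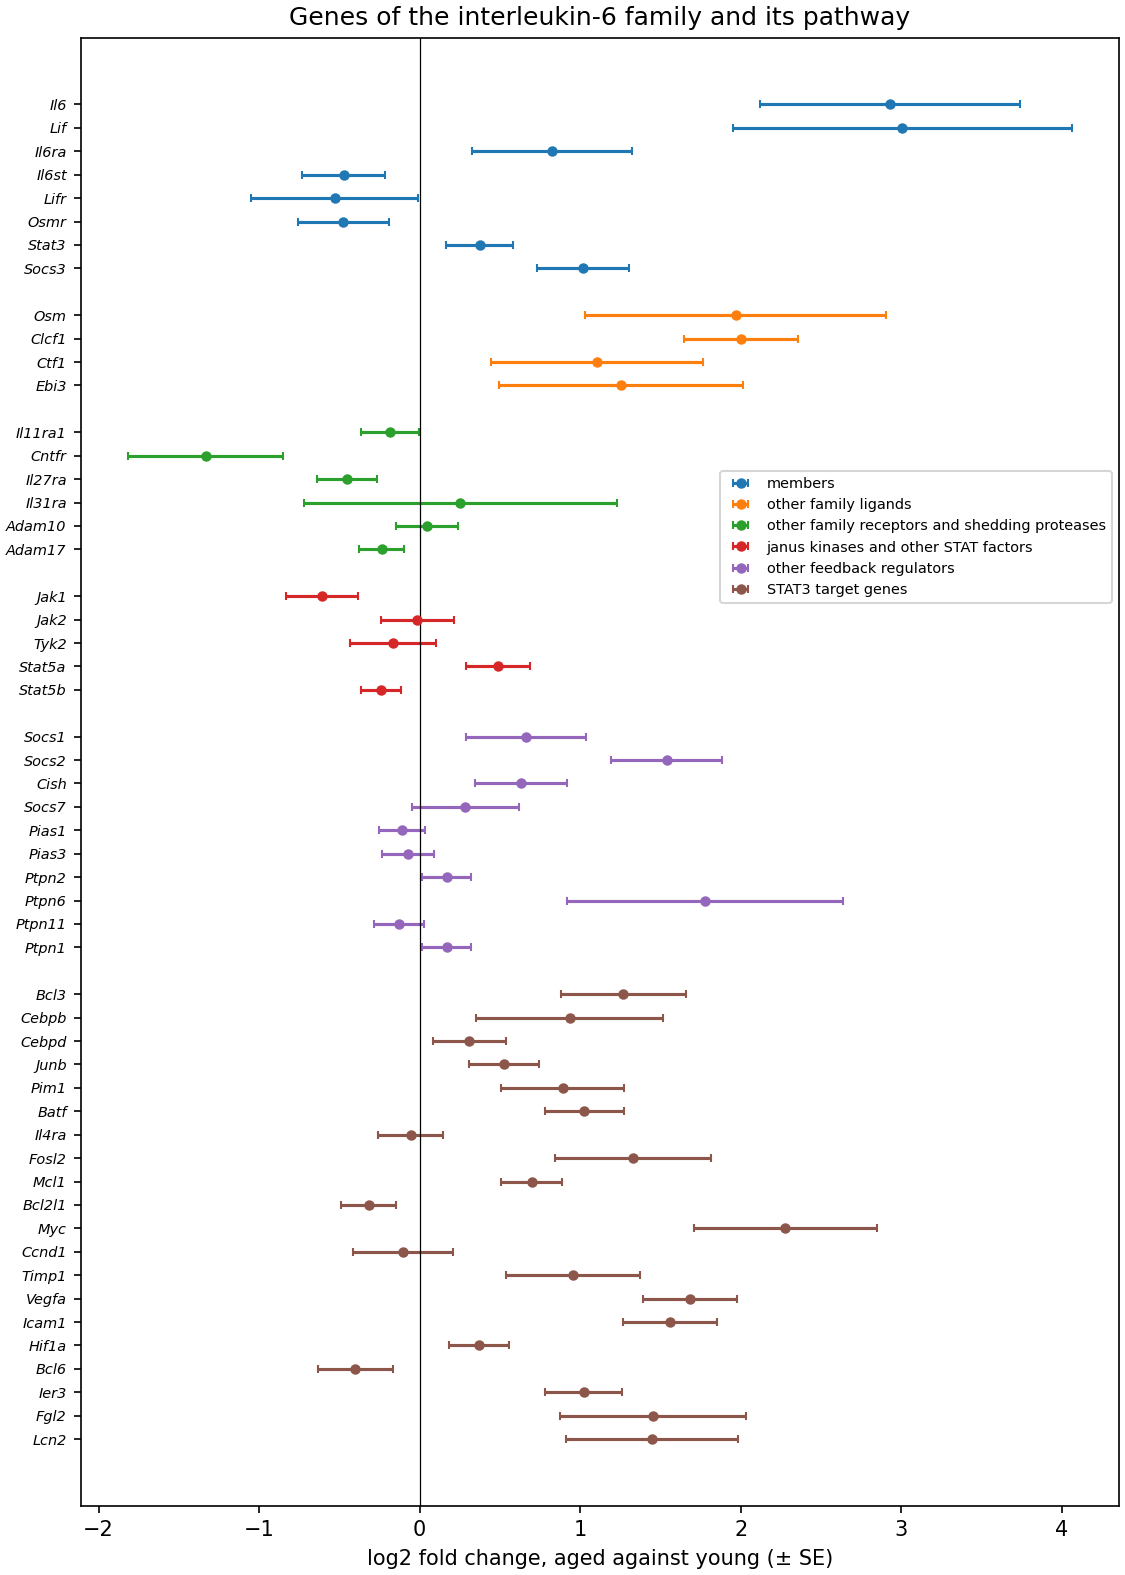
Fitted log2 fold change of aged against young liver ECs (points) with its SE (bars, n = 3 mice each) for the members and for the other tested genes of the pathway, coloured by list. Il6 (2.93) and Lif (3.01) lie farthest to the right, the other receptor chains lie mostly at or left of 0, and 16 of 20 STAT3 target genes lie to the right of it.

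The directions of Il6, Lif and Socs3 were the same under every setting tried, whereas their sizes and the calls were not. For Lif the direction was set in advance under the filter of 0.5 CPM, which it reached in the aged mice alone. With no overlap between the ages, leaving out a mouse could not reverse Il6, Socs3 or Il6st either, apart from rescaling. Over all settings the log2 fold change was 1.54 to 3.53 for Il6, 0.55 to 3.44 for Lif and 0.45 to 1.25 for Socs3, and apart from DESeq2 the lowest adjusted p was 0.133 for Il6, 0.173 for Lif and 0.148 for Socs3. Il6st stayed lower (-0.62 to -0.18), as did Osmr (-0.71 to -0.15), and Il6ra (0.02 to 1.23) and Stat3 (0.20 to 0.54) stayed higher, without a call. For Lifr the range of -1.03 to 0.16 crossed 0. Without the 136-week mouse Il6 and Socs3 stayed above and Il6st below without overlap, but this was fixed in advance, apart from rescaling. The full groups already stood apart, so the remaining aged values had to as well, and this does not test robustness. Of 14302 genes, 12.6% and 11.1% then had all aged values above or below the young ones. These shares are no comparison for genes already known to be separated. Lif stayed above for the same reason, and it also reached the filter through the aged mice alone.

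**Figure D5:**
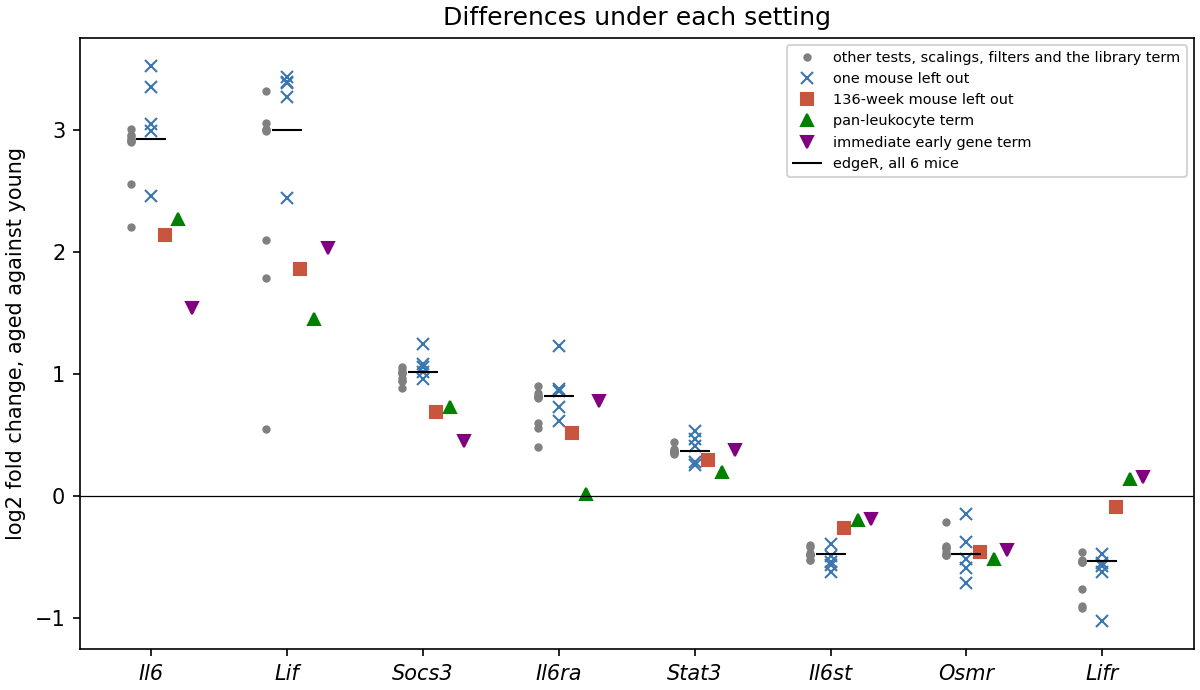
Log2 fold change of each of the 8 tested genes under every setting; the black line is the edgeR value with all 6 mice, and symbols show other settings, each mouse left out in turn and the 2 marker terms. Il6, Lif and Socs3 stay above 0 and Il6st and Osmr below it, while Lifr reaches 0.14 with the leukocyte term and 0.16 with the immediate early gene term.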

How the data were processed

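RNA-seq libraries of CD31+CD45- liver ECs from 3 young and 3 aged mice were read as 75-base single-end reads after a TruSeq v2 preparation. The submitters' processing notes name CASAVA 1.8.2, TopHat2 2.1.0, Cuffnorm 2.2.1 and the build mm9. Raw counts, as whole numbers for 24421 gene symbols, were deposited by the authors; the counting program, annotation and use of strand are not given in the sources used here. Cuffnorm FPKM values, deposited by the authors and scaled between samples, were used to compare levels between genes and in 2 alternatives.

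The 14612 genes that reached 0.5 CPM in 1 or more samples were scaled by TMM and tested with edgeR's quasi-likelihood test (edgeR 4.0.16, R 4.3.3) with Benjamini-Hochberg adjustment at 0.05. Counts of genes past the threshold also required a log2 fold change above 1 or below -1. The SE was the absolute log2 fold change over the root of the F statistic. Alternatives were DESeq2 1.42.0, limma 3.58.1 (voom, and log2 FPKM with a pseudocount of 1 or 0.1), DESeq2 size factors or library size alone, no filter, a filter of CPM 1 in 3 samples, each mouse left out, and terms for the library cluster (a share of Lars2 and Rn45s above or below 2%), leukocyte markers or immediate early genes. The fits were tested on simulated data. Ratios were tested by exact two-sided permutation. The p-values measure the spread between these mice. No pair of libraries was alike within sampling noise (smallest chi-square per degree of freedom 20.5), and 0 columns were left unmapped. The reads carry no molecular identifiers and are not independent molecules, so intervals and the floor of 3 counts cover counting error only.

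The members, gene lists, marker lists and tests were chosen with earlier results of these data known, and the motifs with the sequences known. Named genes are the 9 members, in each pathway list those without overlap between the ages or with an unadjusted p below 0.05 and the 2 with the highest FPKM, markers whose values stand beside a result, and the 3 genes most like each member by Pearson's r (mean CPM of at least 1). A few genes of the pathway lists or chosen by likeness are not reported here. Ebi3 was named outside this rule, after its values were seen. Positions are from GENCODE on mm9, and upstream sequences from RefSeq on GRCm38.p6. Other assays of the study were not analysed here.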

Additional observations from a re-analysis of the deposited data

How the results depend on the processing

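Of the 8 tested members, Lifr alone changed direction under any setting, and the share of all genes that did so was not computed. Leaving out a mouse could not reverse Il6, Lif, Socs3 or Il6st, apart from rescaling, since their groups did not overlap. Lif also reached the main filter through the aged mice alone. Lifr turned to 0.14 with the pan-leukocyte marker term and to 0.16 with the immediate early gene term. The number of members past an adjusted p of 0.05 was 0 with edgeR and 2 with DESeq2, and 0 under every other setting. Genes past the threshold over the whole table were 0 higher and 0 lower with edgeR, 395 higher and 77 lower with DESeq2, 13 and 2 with limma-voom, 3 and 1 without the filter, 6 and 10 with the pan-leukocyte marker term, 1 and 1 with the library cluster term and 1 higher with limma on log2(FPKM + 0.1). Leaving out each mouse in turn gave 0 to 1 higher, the 1 without the 131-week mouse, and 0 lower. The log2 difference of the Osmr to Lifr ratio ran from -0.24, without the 136-week mouse, to 1.07, and that of Il6ra to Il6st from 0.49 to 1.85. The count of STAT3 target genes that were higher at an unadjusted p below 0.05 went from 11 to 7 without the 136-week mouse, a setting chosen after seeing the data. Lif was not tested under the filter of CPM 1 in 3 samples, since it failed that filter. The cause of these shifts was not tested. No paired analysis was possible because the young and aged samples came from different mice. Depth limits Il11 and Lif, with 3 to 7 and 1 to 139 counts a library.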
